A study of Nannospalax ehrenbergi and Mus musculus with 25 samples.

Results

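Expression of 10 genes of the Bcl2 family, the gatekeepers of the mitochondrial route to apoptosis, was followed through 25 RNA-seq libraries of the blind mole rat Spalax and the house mouse. The genes were chosen by name. They comprise 4 survival members, namely Bcl2, Bcl2l1 (Bcl-xL), Bcl2l2 (Bcl-w) and Mcl1, and 6 death members, namely Bax, Bak1, Bid, Bcl2l11 (Bim), Bmf and Bnip3l (Nix). Each is listed in both tables, so the set makes up 10 of the 27988 genes of Spalax and 10 of the 47593 genes of mouse, and all 10 passed the filter on low values in each comparison.

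Bax and Bak1 are the effectors of the family. Once active they form pores in the outer membrane of mitochondria, cytochrome c leaks out, and caspases are switched on. Survival members bind Bax and Bak1 and keep them inactive, while the death members Bid, Bcl2l11 and Bmf carry only the short BH3 helix of the family and use it to occupy the groove of survival members or to activate Bax and Bak1. Bid is the link from death receptors at the cell surface, Bcl2l11 and Bmf respond to loss of growth factors and of attachment, and Bnip3l is best known as a receptor that marks mitochondria for removal. Survival members are raised in many cancers, which makes the balance of both sides a natural question in tumor tissue.

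The BH3 helix is where survival and death members meet, and its core is shown as mouse coding sequence for the members that hold it. The longest complete coding transcript of each member in the GENCODE vM21 annotation (build GRCm38) was translated and searched for a leucine or methionine codon, any 2 codons, a codon for alanine, isoleucine or valine, a codon for glycine or alanine, and an aspartate codon. The pattern was found at 1 place in 9 members and at 0 in Bnip3l. It occurs in 198 (3.46%) of the 5726 mouse genes with a coding length of 192 to 331 codons, the range of the members, and in 6.46% of all 21564 coding genes. The capitals below mark the glycine or alanine codon and the aspartate codon, and each run starts at the leucine or methionine codon.
Bcl2: ctccgccgggctGGGGATgacttctctcgt, chr1.0:106712572-106712601, minus strand, exon 1.0
Bcl2l1: ctgagagaggcaGGCGATgagtttgaactg, chr2.0:152829694-152829723, minus strand, exon 2.0
Bcl2l2: atgcgggctgctGGAGACgagtttgagacc, chr14.0:54884517-54884546, plus strand, exon 3.0
Mcl1: ctgcggcgcgtgGGCGACggcgtgcagcgc, chr3.0:95659436-95659465, plus strand, exon 1.0
Bax: ctccggcgaattGGAGATgaactggacagc, chr7.0:45465994-45466023, minus strand, exon 3.0
Bak1: cttgctctcatcGGAGATgatattaaccgg, chr17.0:27022528-27022557, minus strand, exon 4.0
Bid: ctcgcccaaataGGCGATgagatggaccac, chr6.0:120897286-120897315, minus strand, exon 4.0
Bcl2l11: ctgcggcggatcGGAGACgagttcaacgaa, chr2.0:128147150-128147179, plus strand, exon 3.0
Bmf: cttcagtgtattGCAGACcagttccatcgg, chr2.0:118545097-118545126, minus strand, exon 4.0

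In 8 of the 9 sequences the capitals hold glycine and aspartate, and in Bmf alanine and aspartate. Each run lies within 1 exon of the coding sequence. The match is a description of the coding sequence and was not used in any test.

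The animals were Spalax caught in the wild, whose ages could only be estimated (for the treated animals, about 2 years to 10 years and older, not given per animal), and bought C57BL/6 mice of 3 to 4 months. Treated animals received 1 subcutaneous injection of the carcinogen 3-methylcholanthrene (3MCA) at the left side of the neck, 1 mg in Spalax and 200 µg in mouse. Untreated controls gave 1 library each from 4 female Spalax (1042, 1075, 2095 and 6038) and 3 male mice (M1, M2 and M5), all labelled as the uninjected side (UIS). Tolerant Spalax had been injected and were diagnosed healthy, and their 4 libraries came from the injected side (IS) after 18 months (males 2251 and 2261) or 30 months (male 2218 and female 2375). Tumor-bearing animals gave a UIS and an IS library each. They were 2 female Spalax with a granuloma, operated on after 14 months (600) and 16 months (976), 2 Spalax with a fibrosarcoma after 18 months (female 2240) and 30 months (male 2230), and 3 male mice with a fibrosarcoma after 14, 12 and 11 weeks (1019, 1023 and 512). Libraries of controls and tolerant animals carried dual sequencing indexes and those of all tumor-bearing animals single ones, so index and group cannot be told apart where these are compared.

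Levels are given as normalised counts, the deposited values, which are reads per gene divided by 1 size factor per library, and they can be compared between libraries of a species but not between genes. Depth was 17025447 to 23386729 reads per library in Spalax and 22143060 to 31179183 in mouse. All samples are labelled muscle. The summed level of 9 muscle markers was 874835 to 3302594 in the 12 Spalax libraries other than tumor IS and 210 to 3027 in the 4 tumor IS libraries, and that of 12 markers in mouse was 1394274 to 5106059 outside the tumors and 125 to 59825 in them, with none of these markers at 0 in a whole group. Proliferation markers were higher in all 4 tumor IS libraries (8617 to 20360) than in the other Spalax libraries (493 to 1902). In a bulk tissue fewer cells of a type and less RNA per cell cannot be told apart. Granuloma UIS 976 stood apart with the lowest muscle sum of the UIS libraries, and its label also carries the number 979. Tolerant 2251 stood apart from the other tolerant and control libraries with a leukocyte marker sum of 20354 against 698 to 3728, a fibroblast sum of 224137 against 8462 to 48638, which exceeded that of fibrosarcoma IS 2240 (124904), and the lowest muscle sum, 881623 against 1986275 or more, and mouse UIS 512 with an erythroid sum of 90143.

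**Figure D1:**
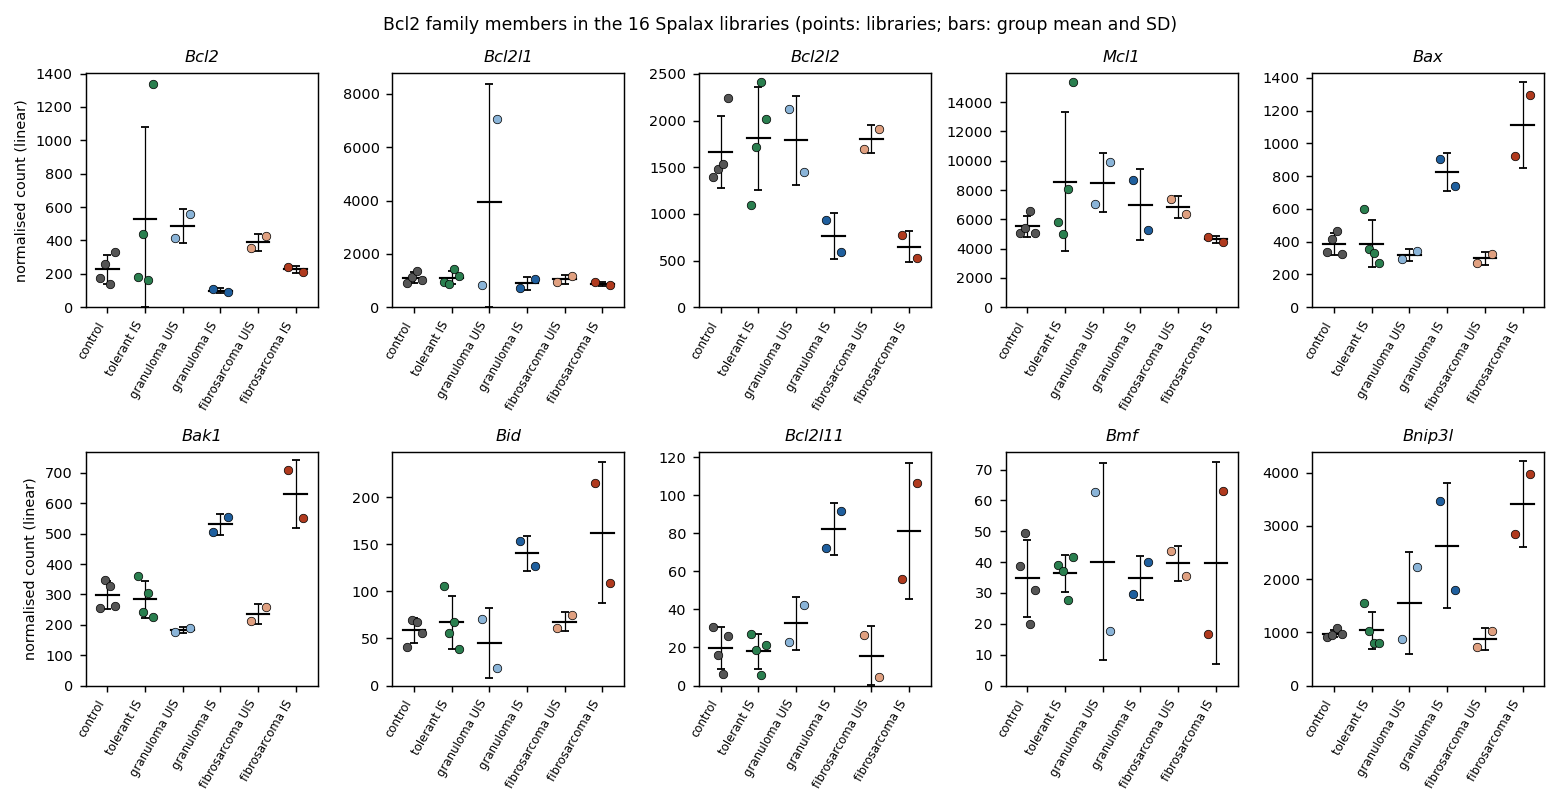
Normalised counts (linear axis from 0) of the 10 members in the 16 Spalax libraries, with 1 point per library, group means as lines and the SD as bars, which are cut at 0. Bax and Bak1 lie higher in all 4 tumor IS libraries than in the 12 others, Bcl2l2 lies lower, and granuloma UIS 976 stands alone for Bcl2l1 at 7066.

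The first comparison asked how the granuloma, a benign growth that the study's pathology described as spindle cells of fibrosis where an inflammation had not fully resolved, differed from uninjected muscle of the same animals. Bcl2 fell, while Bax and Bak1, the pore-forming pair, rose. By limma 3 of the 10 members were differentially expressed at an adjusted p of at most 0.05, 1 survival member lower and 2 death members higher, where 24.3% of the 14735 genes tested were (11.7% higher and 12.6% lower). Bcl2 stood at 414 and 557 normalised counts in the UIS of animals 600 and 976 and at 109 and 91.2 in their IS. Both IS values lay below both UIS values and also below the 4 controls (141 to 332), and the test gave a log2 fold change -2.26, SE 0.46, limma adjusted p 0.0264. Bax was 292 and 344 in UIS and 907 and 741 in IS, so that every IS library exceeded every UIS and control library (log2 fold change 1.37, SE 0.37, limma adjusted p 0.0490). Bak1 went from 175 and 189.6 in UIS to 507 and 555 in IS, again without overlap (log2 fold change 1.54, SE 0.40, limma adjusted p 0.0454).

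The other survival members did not pass. Bcl2l2, a close relative of Bcl2l1, was 2127 and 1446 in UIS and 934 and 592 in IS, which separated the sides at -1.24, SE 0.41, limma adjusted p 0.0798. Bcl2l1, the broadly expressed survival member, was 832 and 7066 in UIS and 727 and 1056 in IS. The difference (-1.47, SE 1.00, limma adjusted p 0.320) rested on the 7066 of library UIS 976, without which it was 0.07. Mcl1, a survival protein of rapid turnover, was 7062 and 9933 in UIS and 8714 and 5284 in IS, and moved down in animal 976 and up in animal 600 (-0.30, limma adjusted p 0.637, and 0.44 with total-read scaling).

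Among the BH3-only death members, Bid was 71.2 and 18.8 in UIS and 154 and 127 in IS, and Bcl2l11 was 22.9 and 42.4 against 72.6 and 91.8. In both genes each IS library lay above each UIS library, yet the spread left limma adjusted p of 0.144 and 0.194 at log2 fold changes of 1.90 and 1.36. Bnip3l was 874 and 2221 in UIS and 3464 and 1794 in IS, with overlap (0.84, SE 0.59, limma adjusted p 0.331), and Bmf was near 0 in change (0.04, SE 0.86). Groups did not overlap in 6 of the 10 members (Bcl2 and Bcl2l2 lower, Bax, Bak1, Bid and Bcl2l11 higher), where 69.8% of all genes did not overlap (35% higher and 34.8% lower).

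Each of the 3 granuloma calls was lost, and with them every call in the whole table, when any 1 of the libraries UIS 600, UIS 976, IS 600 or IS 976 was left out (0 of 10), where the lone library of a side is assumed to vary like the pair. Since 0 genes of the table passed then, this says nothing of the members in particular, and their log2 fold changes stayed within -2.47 to -2.04 (Bcl2), 1.22 to 1.52 (Bax) and 1.47 to 1.60 (Bak1). With the animal as a block, only Bcl2 passed (limma adjusted p 0.0434, 21.1% of all genes called), Bax and Bak1 having 0.0828 and 0.0778. Scaling by total reads in place of the authors' size factors (30.4% of all genes called) left Bax and Bak1 higher and 0 members lower, and took Bcl2 to a log2 fold change of -1.52 (limma adjusted p 0.0581), while TMM scaling took Bax to a limma adjusted p of 0.0548. In the same libraries the muscle marker sum was 874835 to 2379679 in UIS and 363 to 3027 in IS, fibroblast markers were 14392 to 20437 in UIS and 981985 to 2107280 in IS, leukocyte markers 1174 to 3695 and 10043 to 22746, and proliferation markers 684 to 1831 and 8617 to 10979. The part of these cell types in the member values was not tested.

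In Spalax fibrosarcoma, a malignant tumor of fibroblasts, the same question was put to animals 2240 and 2230. Bcl2l2 fell, and Bax, Bak1 and Bnip3l rose. These 4 of 10 members were called by limma, where 36.3% of the 14696 genes tested were (17.4% higher and 19% lower). Bax was 270.3 and 324 normalised counts in UIS and 925 and 1295 in IS, which put both tumors above the 12 Spalax libraries other than tumor IS (269 to 598) (log2 fold change 1.88, SE 0.30, limma adjusted p 0.0136). Bak1 was 211 and 257 in UIS and 709 and 552 in IS, without overlap (log2 fold change 1.42, SE 0.30, limma adjusted p 0.0264). Bnip3l was 732 and 1022 in UIS and 2839 and 3978 in IS, the largest log2 fold change among the called members of this tumor (log2 fold change 1.96, SE 0.31, limma adjusted p 0.0135). Bcl2l2 was 1692 and 1911 in UIS and 769.6 and 529 in IS, so that both tumors lay far below both uninjected sides (log2 fold change -1.49, SE 0.28, limma adjusted p 0.0206).

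Bcl2 itself was 353 and 425 in UIS and 239.7 and 212 in IS, lower in both animals but not past the test (-0.78, SE 0.30, limma adjusted p 0.106), and total-read scaling put it at 0.028. Bcl2l11 had the largest log2 fold change of the 10 members in this tumor, 2.70, SE 0.97, limma adjusted p 0.0924, from 26.7 and 4.26 in UIS to 55.9 and 107 in IS. Its UIS values rest on 22 and 3 reads, so counting error is large there. Bid was 60.6 and 75.3 in UIS and 215 and 109 in IS (1.17, SE 0.51, limma adjusted p 0.138), again apart but uneven between the tumors. Mcl1 (7404 and 6341 in UIS, 4815 and 4483 in IS) and Bcl2l1 (933 and 1167 in UIS, 933 and 828 in IS) had limma adjusted p of 0.132 and 0.468 at log2 fold changes of -0.56 and -0.25, which total-read scaling turned to 0.25 and 0.56. Bmf, at 16.6 to 63.0 normalised counts, overlapped between the sides (-0.27). The other 9 members did not overlap, Bcl2l1 only by 933.5 in UIS 2240 against 933.2 in IS 2240, where 74.3% of all genes did not (37.9% higher and 36.4% lower).

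The 4 fibrosarcoma calls held with the animal as a block (33.2% of all genes called). They did not hold in every fit that left out 1 library. Such a fit has a lone library on a side, which is assumed to vary like the pair, so its count of calls is not given. Over these omissions the log2 fold changes ranged from 1.64 to 2.12 (Bax), 1.24 to 1.60 (Bak1), 1.71 to 2.20 (Bnip3l) and -1.76 to -1.22 (Bcl2l2). Scaling by total reads (46.3% of all genes called) kept Bax, Bak1 and Bnip3l, added Bid and Bcl2l11, and took Bcl2l2 to -0.69 (limma adjusted p 0.0915) where the median of all genes was 0.86, which turned the split from 3 higher and 1 lower to 5 higher and 0 lower. The muscle marker sum was 2125525 to 2633969 in UIS and 210 to 272 in IS, the fibroblast sum 27923 to 46569 and 124904 to 436499, the leukocyte sum 1884 to 2311 and 12869 to 26490, and the proliferation sum 627 to 786 and 19927 to 20360. Their part in the member values was not tested.

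**Figure D2:**
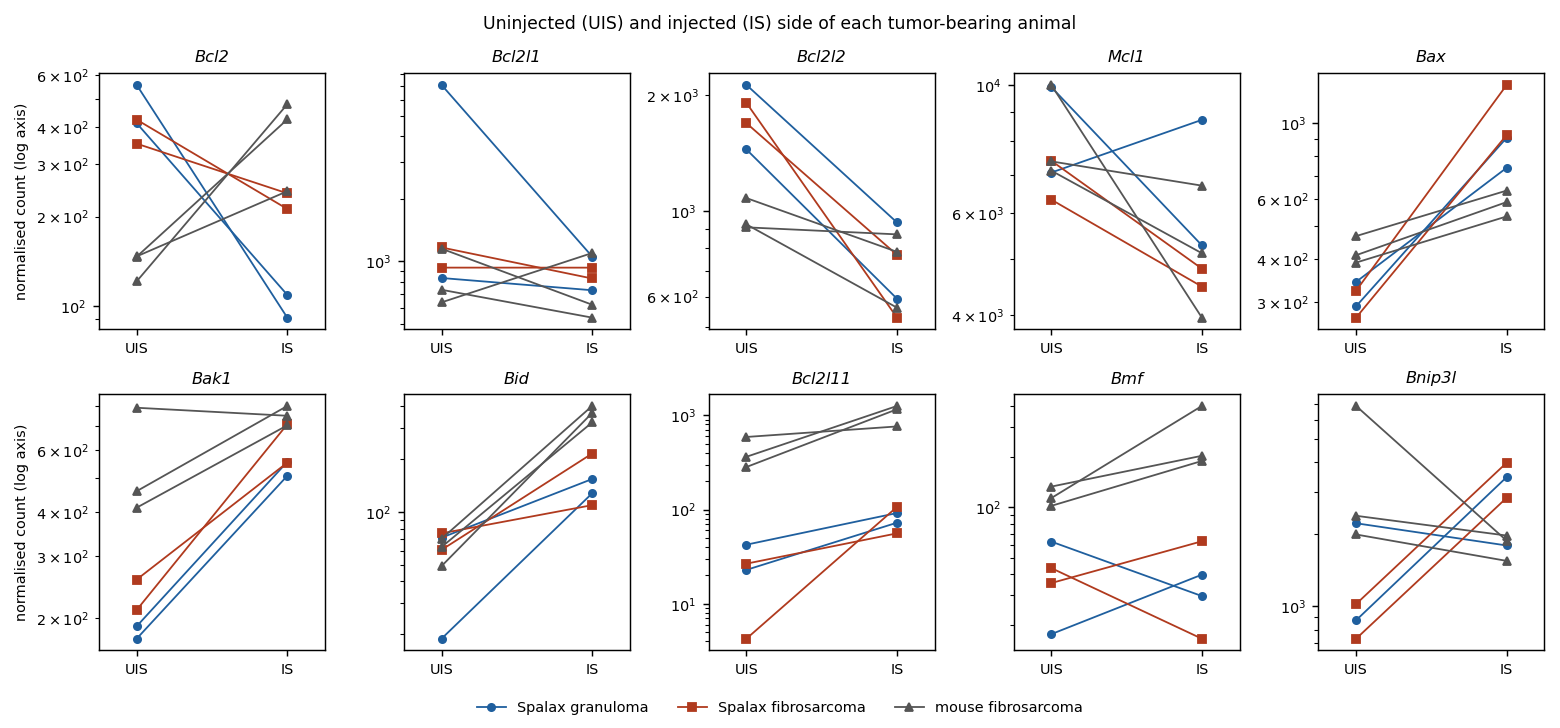
Normalised counts (log axis) of each member in the uninjected and injected side of the 7 tumor-bearing animals, joined by a line per animal. On the authors' scaling the lines of Bcl2 go down in all 4 Spalax and up in all 3 mice (with total-read scaling the fibrosarcoma step is 0.028), those of Bax and Bid go up in all 7, and those of Bnip3l go down in the 3 mice and in granuloma animal 976. Values of both species come from separately normalised tables.

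Granuloma and fibrosarcoma were then set against each other. Of the 10 members 0 passed between their IS libraries, and 0 genes of the 14562 tested did by limma or edgeR (4.06% had an unadjusted p under 0.05, and DESeq2 called 153 genes, 1.05%, 0 of them members). Bcl2 had the lowest unadjusted p of the set, with 109 and 91.2 in granuloma IS and 239.7 and 212 in fibrosarcoma IS (1.17, SE 0.43, limma adjusted p 1). Bax (907 and 741 against 925 and 1295) was the other member without overlap toward higher values in fibrosarcoma, and Mcl1 (8714 and 5284 against 4815 and 4483) was lower there without overlap. These 3 of 10 stand beside 31.4% of all genes (16.7% higher and 14.7% lower). The test of whether the step from UIS to IS itself differed between the tumor types called 0 of 10 members and 0 of 15584 genes by limma and edgeR and 88 genes (0.565%) with 0 members by DESeq2, with Bcl2 again nearest (1.48, SE 0.50, limma adjusted p 0.946), where 4.92% of all genes had an unadjusted p under 0.05. Leaving out any 1 library called 0 members in either test.

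Tolerant Spalax, which were injected and grew no tumor, give the nearest match for injected tissue, and the 4 tumor IS libraries were compared with their 4 IS libraries. Bcl2l2 fell, and Bax, Bak1, Bid, Bcl2l11 and Bnip3l rose. These 6 of 10 members were called by limma, where 46.4% of the 14578 genes tested were (22.4% higher and 24% lower), and they were also the 6 whose groups did not overlap (41.7% of all genes, 19.2% higher and 22.5% lower). Tumor IS libraries are shared with the comparisons above, so these calls are not independent of them. Bax was 598, 354, 329 and 269 normalised counts in tolerant 2251, 2261, 2218 and 2375 against 741 to 1295 in tumors (log2 fold change 1.35, SE 0.29, limma adjusted p 0.00549). Bak1 was 362, 242, 304 and 227 in the same tolerant animals against 507 to 709 (log2 fold change 1.04, SE 0.23, limma adjusted p 0.00671). Tolerant 2251, the library with raised leukocyte and fibroblast and lowered muscle markers, had the tolerant value nearest to the tumors for all 6 called members, the highest for Bax, Bak1, Bid, Bcl2l11 and Bnip3l and the lowest for Bcl2l2. Bid was 106, 55.8, 67.4 and 38.9 against 109 to 215, so that its groups nearly met (log2 fold change 1.21, SE 0.40, limma adjusted p 0.0332).

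Bcl2l11 was 27.0, 18.6, 5.29 and 21.4 in tolerant and 55.9 to 107 in tumors, the largest difference of this comparison (log2 fold change 2.27, SE 0.54, limma adjusted p 0.00855). Bnip3l was 1542, 1018, 792 and 789 against 1794 to 3978 (log2 fold change 1.54, SE 0.31, limma adjusted p 0.00431). Both thus lay higher in every tumor than in every tolerant library. Bcl2l2 was 1098, 1716, 2410.5 and 2013 against 529 to 934, with tolerant 2251 lowest among its group (log2 fold change -1.33, SE 0.29, limma adjusted p 0.00589). Bcl2 varied most among the tolerant animals, at 182, 436, 163 and 1335, and did not pass (-1.27, SE 0.67, limma adjusted p 0.144). Mcl1 was highest in the same animal, 2375, at 15394 against 4976 to 8092 in the other tolerant libraries (-0.47, limma adjusted p 0.348). Without 2375 the log2 fold changes of Bcl2 and Mcl1 were -0.64 and -0.14. Bcl2l1 (-0.30) and Bmf (-0.10) had limma adjusted p of 0.287 and 0.874. Total-read scaling turned Mcl1, Bcl2l1 and Bmf to 0.19, 0.35 and 0.53.

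Of these 6 calls, 5 held when any 1 of the 8 libraries was left out (5034 of 14936 to 7879 of 14871 genes called). The same 6 were made under total-read scaling (53% of all genes called). Bid lost its call without tolerant 2261 (limma adjusted p 0.0826), 2218 (0.0661) or 2375 (0.0880), without granuloma IS 600 (0.0662) or 976 (0.0571) and without fibrosarcoma IS 2240 (0.0821), and kept it without tolerant 2251 (0.0128). The muscle marker sum was 881623 to 3147542 in tolerant, the fibroblast sum 8462 to 224137 and the leukocyte sum 698 to 20354, against the tumor values given above, and their part was not tested. Index and sex differ between these groups as well (3 of 4 tolerant animals were male and 3 of 4 tumor-bearing ones female).

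**Figure D3:**
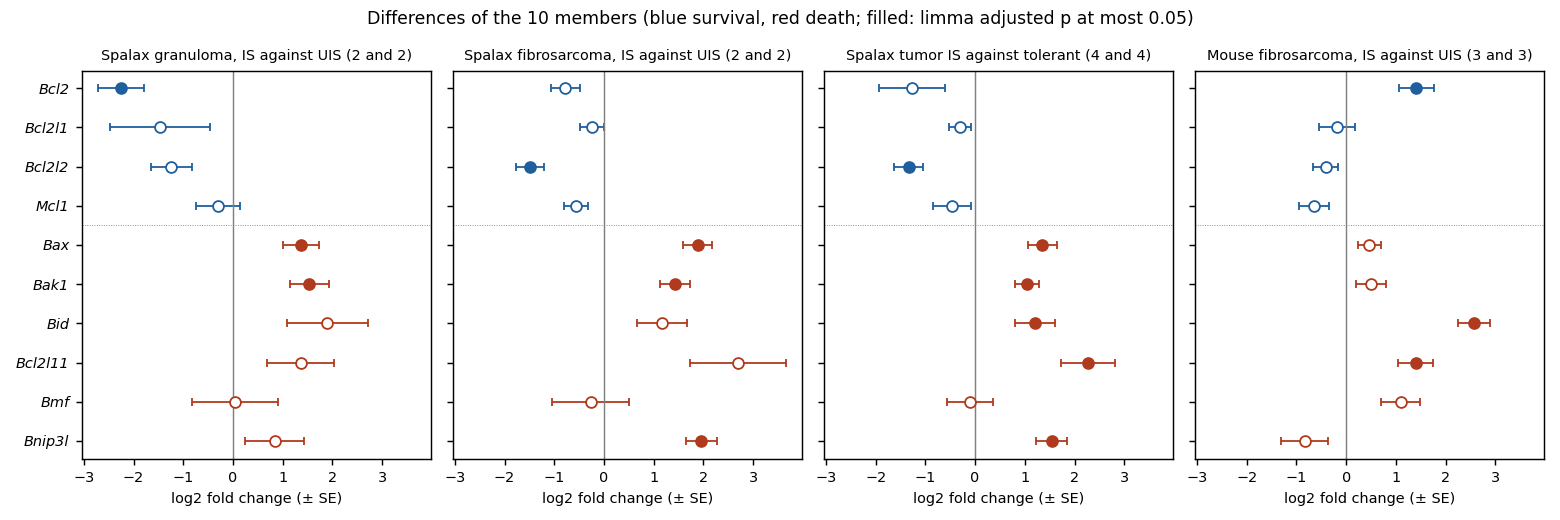
Log2 fold changes of the 10 members (points) with their SE (bars) in 4 comparisons, on the scale of log2(normalised count + 1). Filled points are members with a limma adjusted p of at most 0.05. In the 3 Spalax panels the filled death members lie to the right and the filled survival members to the left of 0. In mouse Bcl2 lies to the right. The unfilled Mcl1, left of 0 in each panel, turns positive under total-read scaling. So do the unfilled Bcl2, Bcl2l1 and Bmf of Spalax fibrosarcoma, Bcl2l1 and Bmf against tolerant tissue, and Bcl2l1, Bcl2l2 and Bnip3l of mouse.

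The mouse fibrosarcomas were compared with uninjected muscle of the same 3 animals. Bcl2, Bid and Bcl2l11 rose, and 0 members were called lower. These 3 of 10 were called by limma, where 45.1% of the 15220 genes tested were (22.8% higher and 22.3% lower). Bid was 70.1, 62.9 and 48.9 normalised counts in the UIS of mice 1019, 1023 and 512 and 402, 324 and 367 in their IS (log2 fold change 2.58, SE 0.32, limma adjusted p 0.00258). All 3 tumors lay far above the UIS and the control libraries (29.1 to 70.1). Bcl2 was 121, 146 and 147 in UIS and 479, 426 and 244 in IS (log2 fold change 1.41, SE 0.35, limma adjusted p 0.0195), with mouse 512 lowest among the tumors. Bcl2l11 was 363, 283 and 589 in UIS and 1255, 1158 and 762 in IS (a 2.63-fold difference, limma adjusted p 0.0206), and mouse 512 had both the highest UIS and the lowest IS value, which still did not meet.

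Bax and Bak1, the pore-forming pair, did not pass in mouse. Bax was 468, 411 and 392 in UIS and 636, 588 and 534 in IS, apart without overlap at 0.47, SE 0.22, limma adjusted p 0.130. Bak1 was 458, 411 and 790.4 in UIS and 799.6, 705 and 750.0 in IS, with mouse 512 already at tumor level in UIS (0.50, SE 0.30, limma adjusted p 0.217). Bmf was 114, 133 and 102 against 401, 203 and 189 (1.10, SE 0.40, limma adjusted p 0.0614), each tumor above each UIS library. The controls, at 178 to 355, overlapped with the tumors. Bnip3l was 1994, 2386 and 6857 against 1547, 1973 and 1877 (-0.84, SE 0.48, limma adjusted p 0.194), where the 6857 of UIS 512 set most of the difference, which was -0.29 without it. The survival members other than Bcl2 did not pass either. Mcl1 was 7385, 7117 and 10018 against 6704, 5120.1 and 3961 (-0.65, SE 0.30, limma adjusted p 0.115). Bcl2l2 was 924, 908 and 1081 against 561, 870.1 and 784 (-0.41, limma adjusted p 0.212), and Bcl2l1 was 730.4, 635 and 1152 against 537, 1097 and 619 (-0.18, SE 0.37, and 0.88 with total-read scaling). Sides did not overlap in 8 of 10 members (60.2% of all genes, 31.1% higher and 29.2% lower), with Bcl2l1 and Bak1 as the exceptions and with Bcl2l2, Mcl1 and Bnip3l lower in IS under the authors' scaling, where total-read scaling turned these 3 to 0.65, 0.42 and 0.23.

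Bid was called whichever library was left out, and the same 3 members with the animal as a block (44.1% of all genes called). Bcl2 and Bcl2l11 lost their calls without either library of mouse 1019 or of mouse 1023 (1 of 10 called, where 4258 to 6165 genes were). Without IS 512 3 members were called (6491 of 15917 genes), and without UIS 512 4, with Bak1 (7289 of 15944 genes). Scaling by total reads (60.5% of all genes called) called 8 members, all higher (every member but Mcl1 and Bnip3l), at a median log2 fold change of all genes of 1.21 against 0.11 with the authors' size factors. The muscle marker sum was 2146732 to 5106059 in UIS and 125 to 59825 in IS, the fibroblast sum 5239 to 33375 and 165893 to 197493, the leukocyte sum 442 to 4905 and 6750 to 36493, and the proliferation sum 130 to 2040 and 16436 to 21924. Their part in the member values was not tested.

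**Figure D4:**
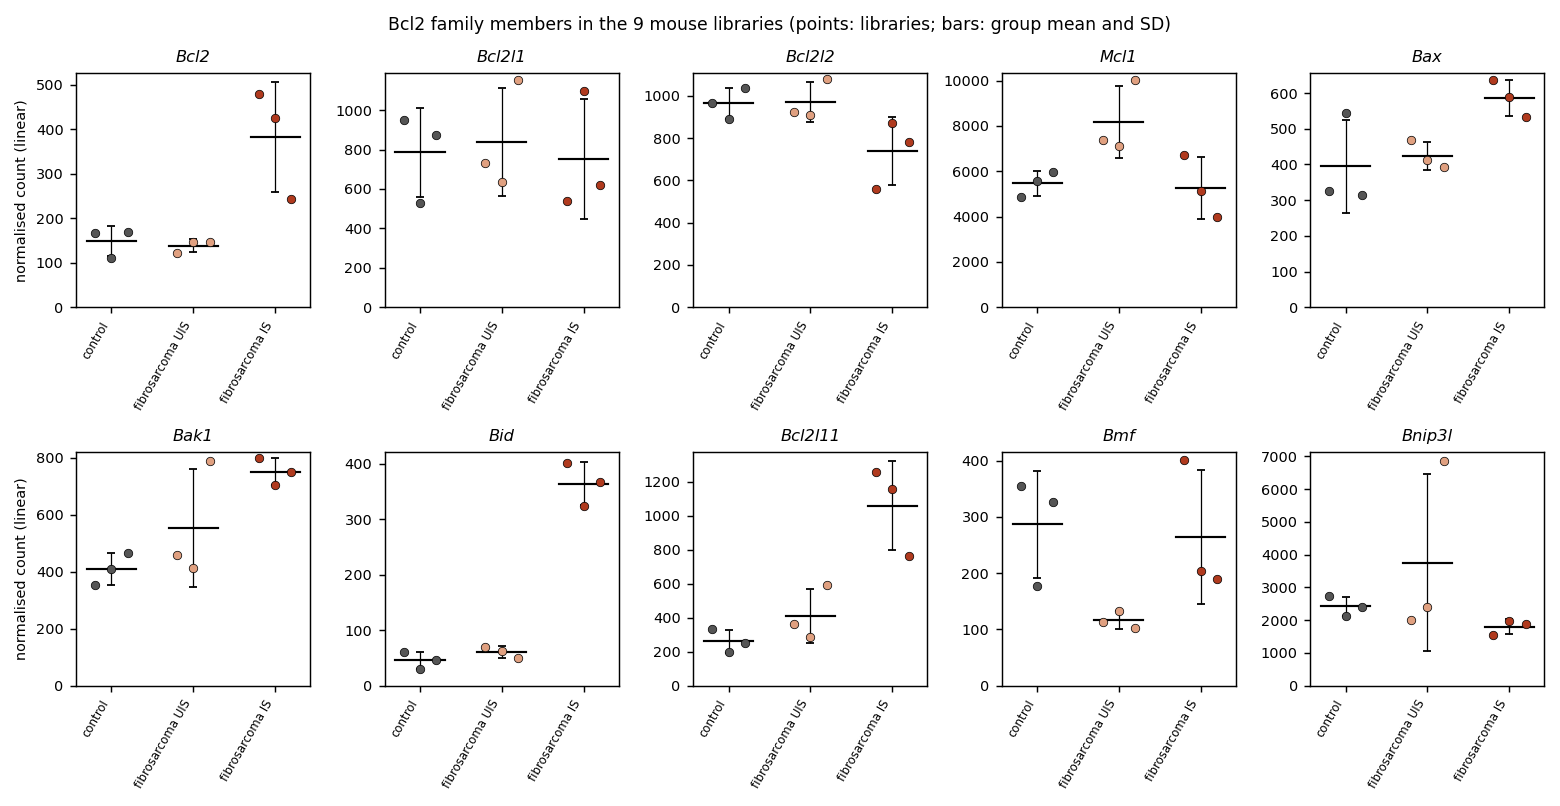
Normalised counts (linear axis from 0) of the 10 members in the 9 mouse libraries, with 1 point per library, group means as lines and the SD as bars, which are cut at 0. Bcl2, Bid and Bcl2l11 lie higher in the 3 IS libraries than in the 6 others, and UIS 512 stands alone for Bnip3l at 6857.

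Whether the step from UIS to IS differed between the fibrosarcomas of Spalax and mouse was tested on the 11085 genes of both tables that share a symbol and pass the filter. Bcl2 was the 1 of 10 members called, where 3.95% of all genes were (2.01% higher and 1.94% lower in Spalax). Its step was -0.78 in Spalax and 1.41 in mouse, a difference of -2.19, SE 0.50, limma adjusted p 0.0486. Bnip3l (1.96 in Spalax, -0.84 in mouse) and Bax (1.88 and 0.47) differed by 2.79, SE 0.68, limma adjusted p 0.0596 and 1.42, SE 0.36, limma adjusted p 0.0644 and did not pass. Bid stepped by 1.17 in Spalax and 2.58 in mouse (difference -1.41, SE 0.57, limma adjusted p 0.198), and Bcl2l2 by -1.49 and -0.41 (difference -1.08, SE 0.38, limma adjusted p 0.147). The remaining 5 members had limma adjusted p of 0.277 or more. Since each species has its own normalisation and gene models, only steps within a table were compared.

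The difference in Bcl2 was not called with the animal as a block (limma adjusted p 0.123, 0 of 10 members, 0.343% of all genes called). The call of Bcl2 was also lost without either library of mouse 1019 or 1023 (56 of 11192 to 439 of 11207 genes called). It was kept without either library of mouse 512. Nor did it hold without either library of Spalax 2240 or 2230, where a lone library of a side is assumed to vary like the pair. Over all 10 omissions the difference in Bcl2 ranged from -2.485 to -1.999. Without mouse UIS 1019 the call was Bnip3l alone (439 of 11207 genes called), and without mouse UIS 512 it was Bcl2, Bax and Bnip3l (3 of 10, with 787 of 11232 genes called). Scaling by total reads, an alternative chosen after seeing the data (3.77% of all genes called), called Bcl2 (-2.45, limma adjusted p 0.0443) and Bnip3l (2.53, limma adjusted p 0.0471), at a median of all genes of -0.28. The Bcl2 step itself was then 0.028 in Spalax and 2.48 in mouse, so that the opposite directions were lost with this scaling. With TMM scaling Bcl2 stayed negative in Spalax fibrosarcoma and was called higher in mouse.

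Uninjected muscle of the 4 tumor-bearing Spalax was compared with the 4 controls to ask whether tissue away from the tumor differs. Of the 10 members 0 were called, as were 0 of 13909 genes by limma and by edgeR, while DESeq2 called 516 genes (3.71%) and 0 members. Bcl2 came nearest, with 173, 262, 141 and 332 normalised counts in controls 1042, 1075, 2095 and 6038 and 353 to 557 in UIS. It was the 1 member whose groups did not overlap (12.7% of all genes, 6.55% higher and 6.2% lower), at 1.00, SE 0.30, limma adjusted p 0.205. Mcl1 was 5033 to 6575 in control and 6341 to 9933 in UIS (0.47, SE 0.20, limma adjusted p 0.282), and Bak1 was 256 to 347 and 175 to 257 (-0.52, SE 0.22, limma adjusted p 0.275). These 3 had an unadjusted p under 0.05, as did 16.6% of all genes. The other 7 members had limma adjusted p of 0.431 or more. The median log2 fold change was 0.51 over the 4 survival members and -0.03 over the 6 death members, beside -0.03 over all genes. Leaving out granuloma UIS 976, or any other 1 library, again called 0 members.

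Tolerant and control Spalax were compared to ask whether injected tissue without a tumor differs from untreated tissue. Here 0 of 10 members were called, 0 had an unadjusted p under 0.05 (5.23% of all genes did), and 0 were without overlap (3.86%, 2.5% higher and 1.36% lower). The count was 0 of 14020 genes by limma and edgeR, and 60 genes (0.428%) with 0 members by DESeq2. Bcl2, at 182, 436, 163 and 1335 in tolerant and 141 to 332 in control, had the largest value, 0.75, SE 0.61, limma adjusted p 0.923, and the 2 highest tolerant libraries, 2375 and 2261, made up the excess. Mcl1 stood at 4976 to 15394 against 5033 to 6575 (0.50, SE 0.34, limma adjusted p 0.923). The other 8 members lay between -0.11 and 0.13 on the log2 scale. Their SEs ran from 0.22 to 0.65, which limits the changes detectable at 4 libraries a group.

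In mouse, UIS against control called 0 of 10 members and 0 of 14792 genes by limma and edgeR, and 342 genes (2.31%) with 0 members by DESeq2. Bmf was lower in UIS without overlap, at 355, 178 and 326 in controls M1, M2 and M5 and 114, 133 and 102 in UIS, with -1.24, SE 0.35, limma adjusted p 0.409. Mcl1 was 4875, 5559 and 5977 in control and 7385, 7117 and 10018 in UIS, higher without overlap (0.57, SE 0.25, limma adjusted p 0.464). No overlap was seen in 21.2% of all genes (9.53% higher and 11.7% lower), and an unadjusted p under 0.05, reached by Bmf alone among the members, in 11%. Bcl2, at 168, 110.5 and 168 in control and 121, 146 and 147 in UIS, overlapped in mouse (-0.09, SE 0.31, limma adjusted p 0.919).

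Survival and death members were then contrasted as groups. The median log2 fold change of the 4 survival members was -1.35 in granuloma, -0.67 in fibrosarcoma, -0.87 against tolerant tissue and -0.30 in mouse. That of the 6 death members was 1.36, 1.65, 1.28 and 0.80 in the same order, beside medians of all genes tested of -0.01, 0.03, 0.06 and 0.11. With scaling by total reads the medians of all genes moved to 0.73, 0.86, 0.72 and 1.21. Survival members then stood at -0.61, 0.14, -0.21 and 0.77 and death members at 2.10, 2.46, 1.93 and 1.87, a shift shared by nearly all genes. By sign, all 4 survival members were negative and all 6 death members positive in granuloma, where total-read scaling turned Mcl1 to 0.44 and TMM, edgeR and DESeq2 turned Bmf negative. No test was run on these medians, since the members were chosen with results of these data known.

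A ratio of reads within a library is free of any size factor, although its absolute size depends on gene lengths and only its change between groups can be read. Reads of Bcl2 per read of Bax were 1.42 and 1.62 in granuloma UIS and 0.120 and 0.123 in IS, and 1.31 and 1.31 in fibrosarcoma UIS and 0.259 and 0.164 in IS. All 4 tumor values lay below the 4 controls (0.303 to 1.02) and the 4 tolerant libraries (0.304 to 4.96). In mouse the same ratio was 0.258, 0.356 and 0.375 in UIS and 0.754, 0.724 and 0.456 in IS. From UIS to IS the ratio thus moved up in all 3 mice and down in all 4 Spalax. The mouse controls were at 0.203 to 0.535 and overlapped with mouse IS. Mcl1 per Bax moved down in all 7 animals, from 24.2, 28.9, 27.4 and 19.6 in UIS of Spalax 600, 976, 2240 and 2230 to 9.60, 7.13, 5.21 and 3.46 in IS, and from 15.8, 17.3 and 25.6 to 10.5, 8.70 and 7.41 in mouse. Bcl2l1 per Bax was 2.85 to 20.6 in Spalax UIS and 0.639 to 1.42 in IS, and 1.54 to 2.94 in mouse UIS and 0.844 to 1.87 in IS. From UIS to IS this ratio moved up in mouse 1023 (1.54 to 1.87) and down in mice 1019 and 512. Mouse controls overlapped with mouse IS for Mcl1 per Bax (controls 10.2 to 19.0) and for Bcl2l1 per Bax (controls 0.974 to 2.925). Bcl2 per Bcl2l11, the pair of a survival protein and one of its BH3-only ligands, was 13.1 to 99.7 in Spalax UIS and 0.993 to 4.29 in IS, whereas mouse IS (0.320 to 0.382) lay within the range of mouse UIS (0.249 to 0.518). All mouse IS values also lay below the mouse controls (0.502 to 0.671).

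**Figure D5:**
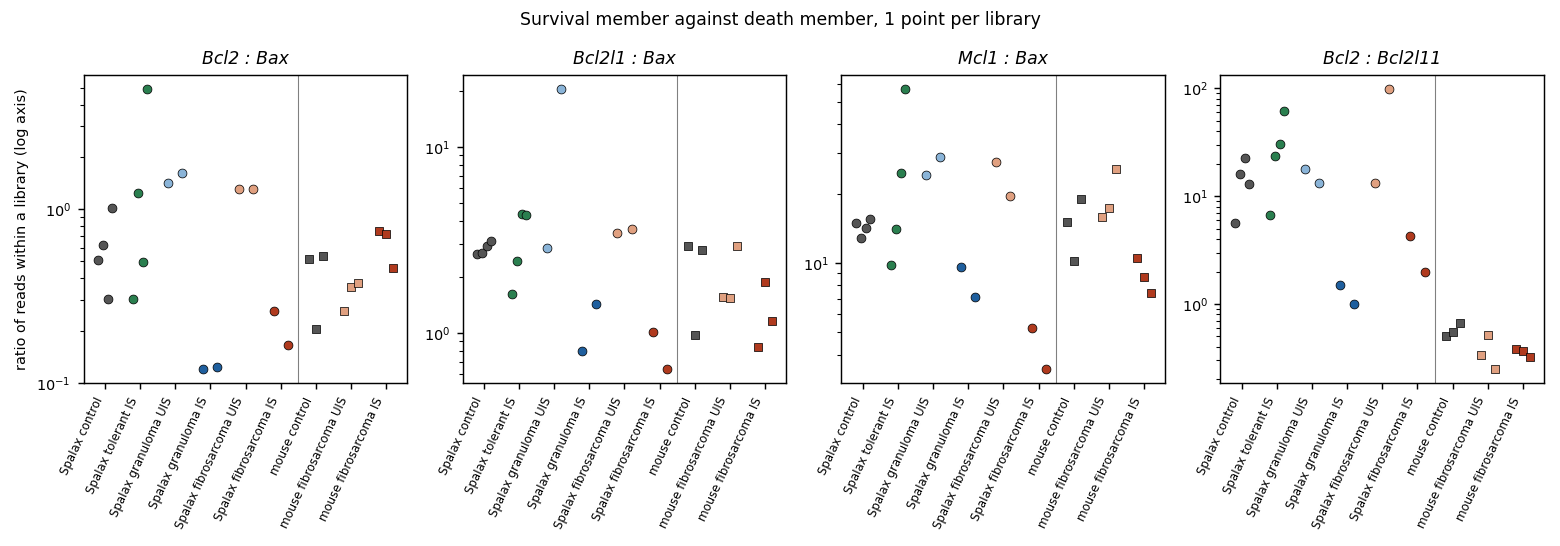
Ratios of reads within each of the 25 libraries (log axis), 1 point per library, for 4 pairs of a survival and a death member, by group. The 4 Spalax tumor IS points lie below all other Spalax points for each pair, and for Bcl2 to Bax the mouse IS points lie above the mouse UIS points but overlap with the mouse control points.

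Across all 6 Spalax groups, the order of group means put both tumor IS groups at the top for Bax, Bak1, Bid, Bcl2l11 and Bnip3l and at the bottom for Bcl2l2. Apart from Bnip3l, whose granuloma UIS and IS values overlapped, the tumor groups of these genes did not overlap with the next group. Bcl2 was lowest in granuloma IS, which did not overlap with fibrosarcoma IS, while fibrosarcoma IS overlapped with control. Among control, tolerant and the 2 UIS groups neighbours overlapped for Bax, Bid, Bcl2l1, Bcl2l2, Bcl2l11, Bmf, Bnip3l and Mcl1, and for Bak1 granuloma UIS lay below fibrosarcoma UIS without overlap. Mcl1 was lowest in fibrosarcoma IS (4649 ± 235, SD, n = 2) and highest in tolerant (8574 ± 4733, SD, n = 4). Bmf had means of 34.7 to 40.2 in all 6 groups, each overlapping its neighbour. Together the 10 members took 0.0384% to 0.0505% of the reads in Spalax controls, 0.0468% to 0.0861% in tolerant, 0.0506% to 0.0918% in granuloma UIS, 0.0478% to 0.0528% in fibrosarcoma UIS, 0.0772% to 0.104% in granuloma IS and 0.0850% to 0.0939% in fibrosarcoma IS, so that tolerant and granuloma UIS overlapped with the tumors. In mouse the share was 0.0400% to 0.0537% in control, 0.0472% to 0.0631% in UIS and 0.0739% to 0.105% in IS.

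Between genes, levels were compared per length in mouse only, as reads per kilobase of merged exons (GENCODE vM21) and per 1e+06 reads. Mcl1 was the most abundant member in control muscle at 68.6 ± 9.26 (SD, n = 3), followed by Bnip3l at 27.1 ± 5.77. Bax (10.5 ± 2.23), Bcl2l2 (9.32 ± 1.56), Bcl2l1 (7.49 ± 2.73) and Bak1 (7.28 ± 1.26) came next, with ranges that overlapped. Bmf (2.39 ± 0.971), Bcl2l11 (1.42 ± 0.480), Bcl2 (0.708 ± 0.217) and Bid (0.558 ± 0.238) were lowest. Mcl1 also led in UIS (83.6 ± 3.39) and in the tumors (115 ± 35.4), where Bnip3l (34.5 ± 2.62), Bax (27.7 ± 3.57) and Bak1 (23.2 ± 2.67) followed. Bid stood at 7.65 ± 1.21 and Bcl2 at 3.12 ± 1.09 in the tumors on this scale, against 0.618 ± 0.180 and 0.536 ± 0.0877 in UIS. In GRCm38 some exon bases of 5 members lie under other genes. On the same strand these are 13.3% of Bcl2l2 (Gm20521) and 12.2% of Bax (Gm45808), and on the opposite strand 6.09% of Bcl2 (D630008O14Rik), 25.5% of Bak1 (Ggnbp1) and 17.7% of Bid (Bcl2l13). The strand setting of the counting is not given in the sources used here, so reads of these partners may be mixed.

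Other genes of the pathway were taken from 6 lists of 49 genes, of which 40 are in the Spalax table and 48 in that of mouse. In granuloma 5 of 38 tested were higher and 6 lower (24.3% of all genes called), in fibrosarcoma 13 and 11 of 38 (36.3%), against tolerant tissue 14 and 12 of 38 (46.4%), and in mouse 16 and 13 of 44 (45.1%). Of all genes 11.7%, 17.4% and 22.8% were called higher in granuloma, fibrosarcoma and mouse, and with total-read scaling 3418 of 14929, 5285 of 14983 and 7935 of 15841. Of the apoptosome and its caspases 6 of 7 rose in Spalax fibrosarcoma and 6 of 8 in mouse (1 fell), while in granuloma the 7 had a median of 1.34 and 0 were called. With total-read scaling 6 of 7, 7 of 8 and 3 of 7 rose and 0 fell. The largest rise in fibrosarcoma was that of Apaf1, the scaffold of the apoptosome (2.50, limma adjusted p 0.0496, with the animal as a block 0.0548). The gene of that list that fell in mouse was Cycs, cytochrome c (-2.54, limma adjusted p 0.00992), which with total-read scaling was at -1.47 (limma adjusted p 0.0654).

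The mitochondrial channel and release genes were the list with the most falls. These were 5 of 8 in granuloma, 8 of 8 in fibrosarcoma and 7 of 8 in mouse, where 12.6%, 19% and 22.3% of all genes fell. With total-read scaling 3, 4 and 3 of 8 fell and 1 rose in mouse, where 1123 of 14929, 1654 of 14983 and 1641 of 15841 genes fell. Vdac1, a pore of the outer mitochondrial membrane, fell most in each, by 2.96, 3.40 and 3.46 on the log2 scale (limma adjusted p 0.0146, 0.00462 and 0.00238), and the muscle markers given above fell in the same libraries. Birc5 (survivin), an inhibitor of apoptosis needed for cell division, rose by 3.82, 3.17 and 5.61 on the log2 scale (limma adjusted p 0.0116, 0.00850 and 0.0124) in libraries whose proliferation markers were higher. In the same order 11.7%, 17.4% and 22.8% of all genes were called higher, and with total-read scaling 3418 of 14929, 5285 of 14983 and 7935 of 15841. Of the caspase inhibitors and their antagonists 1 of 7 was higher in granuloma, 1 higher and 1 lower in fibrosarcoma and 2 higher and 1 lower of 8 in mouse, and with total-read scaling 2, 5 and 5 were higher and 0 lower. Those that fell were Birc2 in fibrosarcoma (-0.97, limma adjusted p 0.0335) and Diablo, which blocks these inhibitors, in mouse (-1.48, limma adjusted p 0.00494), and total-read scaling took both calls away (-0.16 and -0.41), as did the animal as a block for Birc2 (limma adjusted p 0.0614).

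In the death receptor arm, which feeds into Bid, 3 of 6 genes rose in granuloma, 4 of 6 in fibrosarcoma and 3 of 7 in mouse, where 1 fell, and with total-read scaling 4, 5 and 5 rose and 0 fell. Over all genes 11.7%, 17.4% and 22.8% rose, and with total-read scaling 3418 of 14929, 5285 of 14983 and 7935 of 15841. Fas, a death receptor, had group means of 8.48 normalised counts in Spalax controls, 10.8 and 17.2 in granuloma and fibrosarcoma UIS, and 141 and 169 in the matching IS groups (log2 fold changes 3.58 and 3.13, limma adjusted p 0.0307 and 0.0194). In mouse it went from 404 in UIS to 127 in IS (-1.67, limma adjusted p 0.0398), a call lost with total-read scaling (-0.61, limma adjusted p 0.394). The difference between species was 4.80 (SE 0.84, limma adjusted p 0.0253, with the animal as a block 0.0675). Fas was the 1 of 36 pathway genes called there, where 3.95% of all 11085 genes tested were. The largest rise of this list in mouse was that of Ripk1, a kinase at the receptor (1.85, limma adjusted p 0.00874).

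Among further family genes, Bcl2a1, a survival member of blood cells, was 117 and 61.2 normalised counts in the UIS of granuloma animals 600 and 976 and 22.5 and 29.6 in their IS (-1.68, limma adjusted p 0.135). In fibrosarcoma it fell, from 135 and 136 in the UIS of animals 2240 and 2230 to 17.2 and 8.40 in their IS (-3.38, limma adjusted p 0.0143), as it did against tolerant tissue (-2.52, limma adjusted p 0.00684). In mouse all 3 tested copies rose, with Bcl2a1a at 3.96 (limma adjusted p 0.0322), though these copies are nearly identical and reads may be split between them. Of the other death genes 1 rose and 1 fell of 9 in granuloma, 2 and 1 of 9 in fibrosarcoma and 2 and 3 of 10 in mouse. With total-read scaling these were 5 and 0 of 10, 3 and 0 of 9, and 4 and 2 of 10. Over all genes 11.7% rose and 12.6% fell in granuloma, 17.4% and 19% in fibrosarcoma, and 22.8% and 22.3% in mouse. With total-read scaling 3418 rose and 1123 fell of 14929 genes, 5285 and 1654 of 14983, and 7935 and 1641 of 15841. Bcl2l14 rose in granuloma (4.84, limma adjusted p 0.0445, with the animal as a block 0.0535) and fibrosarcoma (4.39, limma adjusted p 0.0253). Bcl2l13, a mitochondrial protein that shares exon bases with Bid in mouse, fell in both (-1.66 and -1.74, limma adjusted p 0.0213 and 0.0242) and with total-read scaling in neither (limma adjusted p 0.0751 and 0.0770). In mouse the largest rise was that of Pmaip1 (Noxa), a BH3-only antagonist of Mcl1 (4.41, limma adjusted p 0.00730), and the largest fall that of Bnip3, the closest relative of Bnip3l (-3.69, limma adjusted p 0.0240). Bcl2l15 passed in 0 comparisons, with log2 fold changes of -1.22 in granuloma, 0.35 in fibrosarcoma and -1.71 in mouse (limma adjusted p 0.304, 0.745 and 0.0503) and of 2.70 in Spalax UIS against control (limma adjusted p 0.175).

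How the members varied together is given as a description over the libraries of a species, which share groups, depth and tissue makeup. Over the 16 Spalax libraries the log2 levels of Bax correlated with those of Bak1 (Pearson's r 0.92) and Bnip3l (0.89), and Bcl2l2 ran opposite to Bax (-0.92) and Bnip3l (-0.84). Over the 9 mouse libraries Bcl2 went with Bid (0.90) and Bcl2l11 (0.89). The gene most like each member among 16054 others over the Spalax libraries was Pgd for Bax (0.98), Smg5 for Bcl2l2 (0.97), Atxn7l3 for Bid (0.97), Poldip3 for Bnip3l (0.96), Sft2d2 for Bak1 (0.96), Tceanc2 for Bcl2l1 (0.96), Zbtb34 for Bcl2l11 (0.94), Rad21l1 for Bcl2 (0.90), Myo7a for Bmf (0.88) and Srpr for Mcl1 (0.85).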

How the data were processed

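Libraries of the labelled muscle and tumor tissue were made with a stranded kit. The authors trimmed reads with Trimmomatic, aligned them with TopHat2 (the submitters' processing notes list TopHat 1.4.1) to the Spalax genome or to GRCm38, counted them with HTSeq and divided counts by DESeq size factors, and the deposited values are therefore gene counts on a normalised scale (a signal per gene, not whole counts), 1 table per species. The strand setting of the counting is not given in the sources used here. Dividing each column by the value of 1 read gave whole reads for 100% of values (tolerance 0.01), which served for depth, ratios and count tests.

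The main test was limma 3.58.1 (R 4.3.3) on log2(value + 1) over the libraries of each comparison, after dropping genes that did not reach a value of 10 in a number of libraries equal to the smaller group, with Benjamini-Hochberg adjustment over all genes and a threshold of 0.05. Fold changes are on the log2(value + 1) scale, which understates those of low genes. Because the deposited values are not whole counts, edgeR 4.0.16 and DESeq2 1.42.0 on the recovered reads were alternatives, besides TMM, scaling by total reads, a pseudocount of 0.1, no filter, 1 model over all libraries, the animal as a block and leaving out each library. The main limma fit was tried on simulated data for the IS against UIS comparisons and for tumor-bearing UIS against control in Spalax only. The other comparisons, edgeR, DESeq2 and the animal as a block were not simulated. The pairing comes from the specimen number, which both sides of a tumor-bearing animal share. Correlations of same-animal deviations were 0.0092 in granuloma, -0.0019 in fibrosarcoma and 0.047 to 0.18 in mouse. The p-values measure the spread between libraries of different animals. Among 25 replicate pairs 0 agreed within sampling noise (smallest chi-square per gene 48.1).

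The 10 members and the pathway and marker lists were chosen with earlier results of these data known. All members are named, and of each pathway list the called genes with the largest rise and fall in each IS against UIS comparison, besides Bcl2a1 and Bcl2l15 wherever tested and the gene most like each member, except for a result that is not reported here. In 2387 names of the Spalax table a comma stands for the letter t and was read so.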

Additional observations from a re-analysis of the deposited data

Results flagged for a closer look

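Among 40 tests of a group and member for a library far from the rest, 2 stood out, and chance gives about 1 in 20. Both were library UIS 976 of the granuloma group, set among the 4 UIS libraries of tumor-bearing Spalax. Bcl2l1 was 7066 normalised counts there, with the next highest library at 1167. Bid was 18.8 there, with the next lowest library at 60.6. The label of this library also carries the number 979, and it had the lowest muscle marker sum of the UIS libraries (874835).

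The step from UIS to IS differed between the fibrosarcomas of Spalax and mouse for Bcl2, by -2.19 on the log2 scale (interaction term in limma, adjusted p 0.0486), and for the death receptor Fas, by 4.80 (limma adjusted p 0.0253). Bcl2 was lower in both Spalax IS libraries and higher in all 3 mouse IS libraries than in the UIS of the same animal with the authors' size factors. With total-read scaling the Spalax step was 0.028 and the mouse step 2.48. With the animal as a block the limma adjusted p were 0.123 and 0.0675.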

How the results depend on the processing

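With 2 animals per Spalax tumor group, a fit without 1 library has little power, and in granuloma 0 genes of the table passed in any such fit. In fibrosarcoma the calls did not hold in every such fit. Leaving out each library in turn gave 1 to 4 called members in mouse (4258 of 15833 to 7289 of 15944 genes called). Against tolerant tissue it gave 5 to 6 (5034 of 14936 to 7879 of 14871 genes). For the difference between species, leaving out 1 mouse library gave 0 to 3 (56 of 11192 to 787 of 11232 genes). In granuloma 1 member was called with no filter (2692 of 20775 genes called) and 1 with the animal as a block (3108 of 14735). With 1 model over all libraries 5 were called there (6314 of 14735 genes). In mouse 8 were called with scaling by total reads (9576 of 15841 genes). For the difference between species 0 were called with the animal as a block (38 of 11085 genes). Scaling by total reads, which was chosen after seeing the data, called 2 for that difference (424 of 11253 genes). The cause was not tested. The block changed no other member count of calls. Genes called in granuloma were 3581 by limma, 5383 by DESeq2 and 6314 with 1 model, and for the difference between species 438 by limma and 38 with the block.

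Values under other settings were counted only for the comparisons with a called member. Of these 670 member values 567 kept their direction and side of the threshold, 51 no longer passed, 17 came to pass and 35 turned direction, 0 of these for a called member. Values turned in other comparisons too. For tolerant against control, total-read scaling took the positive death members from 3 to 6. Scaling by total reads turned Mcl1 to 0.44 in granuloma, Bcl2, Bcl2l1, Mcl1 and Bmf to 0.028, 0.56, 0.25 and 0.52 in fibrosarcoma, Bcl2l1, Bcl2l2, Mcl1 and Bnip3l to 0.88, 0.65, 0.42 and 0.23 in mouse, Bcl2l1, Mcl1 and Bmf to 0.35, 0.19 and 0.53 against tolerant tissue, and Mcl1 to -0.17 for the difference between species. Bmf turned in granuloma to -0.0021 with TMM, -0.16 with edgeR and -0.21 with DESeq2, in fibrosarcoma to 0.00089 with edgeR, and against tolerant tissue to 0.041 with edgeR and 0.017 with DESeq2. Without single libraries the log2 values ranged in granuloma from -3.01 to 0.074 (Bcl2l1), -0.66 to 0.057 (Mcl1) and -0.85 to 0.93 (Bmf), in fibrosarcoma from -1.20 to 0.66 (Bmf), in mouse from -0.49 to 0.068 (Bcl2l1), against tolerant tissue from -0.40 to 0.22 (Bmf), and between species from -0.32 to 0.25 (Bcl2l1) and -0.10 to 0.28 (Mcl1). Bcl2l11, Bid and Bmf of Spalax rest on few reads, which limits their precision.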

Other observations

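Marker sums of 3 further cell types are given as values. Fat markers summed to 3878 to 33833 normalised counts in the 4 UIS libraries of tumor-bearing Spalax and to 180.1 to 1245 in their IS, and to 10282 to 99207 and 262 to 837 in mouse. Endothelial markers summed to 10277 to 11597 and 3798 to 6109 in Spalax and to 10455 to 17609 and 2067 to 11973 in mouse. Erythroid markers summed to 336 to 603 and 195 to 343 in Spalax and to 7328 to 90143 and 904 to 3452 in mouse.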
